A study of Homo sapiens with 15 samples.

Results

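The genes described here are 8 regulators of developmental timing, given as a list of names: the RNA-binding proteins LIN28A and LIN28B, the chromatin proteins HMGA1 and HMGA2, the mRNA-binding proteins IGF2BP1, IGF2BP2 and IGF2BP3, and the ubiquitin ligase TRIM71. All 8 were found, by symbol, among the 19684 genes of the deposited tables. Poly(A) RNA was sequenced from 5 groups of 3 libraries, all from BC1-GFP, a human induced pluripotent stem cell line (hiPSC) that carries a GFP reporter and is labelled wild type. The groups were undifferentiated hiPSCs, neural retina (NR) layers of retinal organoids (ROs) sampled at day 70 (named D70-ROs) or at day 150 (named D150-ROs), and induced Müller glial cells (iMGCs) grown from the NR layers of D150-ROs in medium with serum and taken on day 5 of passage 1 or passage 5 (P1 and P5 iMGCs). No group received a drug or a genetic change, all come from 1 line, and the NR layers of several ROs were pooled in each RO sample. Per the paper, the RO medium held serum too, and a supplement in it was exchanged for another between day 70 and day 150.

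LIN28A and LIN28B bind the precursors of the let-7 microRNAs and block their maturation, and mature let-7 in turn represses mRNAs that carry its target sites, LIN28 mRNAs among them. This mutual repression is a classical developmental clock, in which LIN28 marks early and let-7 late stages. HMGA2, the IGF2BP mRNAs and TRIM71 are well-known let-7 targets in the same circuit, and in the retina of model animals Lin28 is known for its part in progenitor timing and in the reprogramming of Müller glia. Mature microRNAs were not measured in these poly(A) libraries.

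The sequences that join these genes to let-7 are shown first. RefSeq holds 9 mature human microRNAs named let-7 or miR-98 on the 5p arm, and all 9 share the seed, bases 2 to 8, which is in capitals in the 4 shown here to let a reader see how the family differs outside it.
hsa-let-7a-5p: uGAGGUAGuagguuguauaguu
hsa-let-7d-5p: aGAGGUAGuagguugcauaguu
hsa-let-7i-5p: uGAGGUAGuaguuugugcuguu
hsa-miR-98-5p: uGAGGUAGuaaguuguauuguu

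A seed match is the motif CTACCTC, searched on the transcript strand of the annotated 3′ untranslated region (UTR) of 1 protein-coding transcript per gene in GENCODE 29 (GRCh38). All 8 genes held at least 1 match, against 8.6% of the 18942 genes with such a UTR. TRIM71 held 6, the most of any gene searched, in a UTR of 6015 nt. HMGA2, LIN28B and IGF2BP1 held 4 each, a number that 0.063% of all genes reached or passed, and LIN28A, HMGA1, IGF2BP2 and IGF2BP3 held 1 each. Long UTRs hold more matches by length alone. Among genes whose UTR length was within a factor of 1.25, at least as many matches were found in 0.128% for TRIM71, 0.099% for HMGA2, 0.233% for LIN28B and 0.556% for IGF2BP1, and in 16.8% for LIN28A, 8.54% for HMGA1, 11.7% for IGF2BP2 and 11.9% for IGF2BP3. The 1 match of the last 4 genes is thus found in 8.54% to 16.8% of UTRs of like length. A match is a description of the sequence and not a measured binding site.

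The transcript decides the count for HMGA2. The search was first run on the transcript with the longest 3′ UTR of each gene. For HMGA2 this was HMGA2-210, of 8094 nt, which held 0 matches. After that count was seen, the rule was changed for all genes to the principal transcript of the APPRIS annotation, which is HMGA2-204, of 4473 nt, and the counts above use it. The counts and FPKM of HMGA2 in the deposited tables imply a transcript length between 4262 and 4476 nt. Taking for every gene the transcript nearest to its implied length also gave HMGA2-204 and 4 matches. The other 7 genes had the same number of matches under all 3 rules, and the share of genes with at least 1 match was 8.59%, 9.57% and 7.98% with the principal, the longest-UTR and the nearest-length transcript.

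The matches shown next, in capitals within 22 bases of their last exon (GENCODE 29, GRCh38, plus strand), are the 4 of HMGA2, the only 1 of LIN28A, the first of LIN28B and a neighbouring pair of TRIM71, because these genes had the contrasting courses described below.
HMGA2, exon 5, chr12:65963299-65963320: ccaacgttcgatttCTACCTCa
HMGA2, exon 5, chr12:65964534-65964555: cccactactcaataCTACCTCt
HMGA2, exon 5, chr12:65964946-65964967: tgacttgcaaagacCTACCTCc
HMGA2, exon 5, chr12:65965799-65965820: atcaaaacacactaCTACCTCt
LIN28A, exon 4, chr1:26427349-26427370: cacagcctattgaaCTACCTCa
LIN28B, exon 4, chr6:105078813-105078834: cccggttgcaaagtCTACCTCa
TRIM71, exon 4, chr3:32895806-32895827: cttttgctgagtttCTACCTCa
TRIM71, exon 4, chr3:32895829-32895850: ttgtggcaagtcatCTACCTCa

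**Figure D1:**
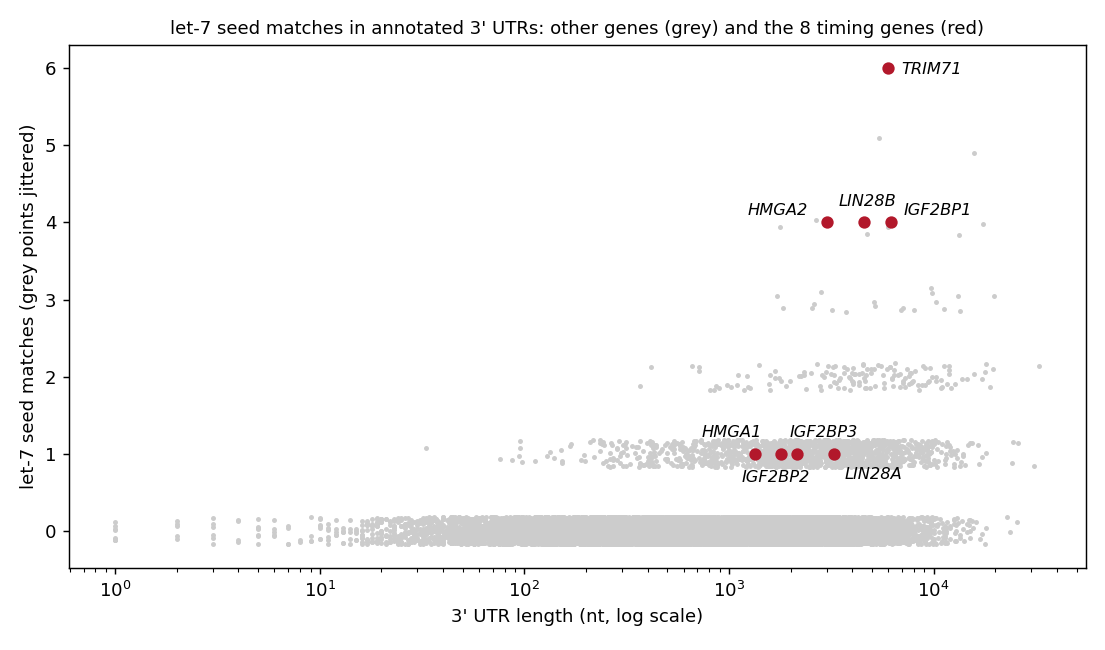
Number of let-7 seed matches (y axis) against the length of the annotated 3′ UTR in nt (x axis, log scale), 1 point per gene, for the principal transcript. TRIM71 lies highest with 6 matches, HMGA2, LIN28B and IGF2BP1 have 4, and the other 4 timing genes have 1.

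Expected counts per library summed to between 11349600 (D70-RO replicate 2) and 20398755. FPKM, which scales reads for transcript length and library total, is the level given for each library, and tests used edgeR's quasi-likelihood test on the counts with TMM scaling and Benjamini-Hochberg adjustment over all genes tested. Calls required an adjusted p below 0.05 together with at least a 2-fold change. The labels of the samples give 3 independent experiments per group while the series text gives 2 for the hiPSC and RO groups, so the p-values measure the spread between these libraries. Group and any sequencing batch that coincides with it cannot be told apart. In the check of the labelled cells, the summed FPKM of 5 pluripotency markers was 2496 to 2818 in hiPSCs, at most 83.0 in ROs and at most 1.24 in iMGCs. Most of the RO sum was SOX2, at 70.3 FPKM on average in D70-ROs and 69.9 in D150-ROs. POU5F1 averaged 4.20 and 4.17 there, and NANOG, TDGF1 and DPPA4 each averaged under 1 FPKM. Of 5 Müller glia markers, 4 were called lower and 1 higher in P1 iMGCs than in D150-ROs, where 24.1% and 20.0% of all genes were. RLBP1, which encodes the retinaldehyde-binding protein CRALBP, was at 33.5 ± 3.66 FPKM (SD, n = 3) in D150-ROs and at 0 in all 3 P1 iMGC libraries. GLUL, the glutamine synthetase gene, went from 100.2 ± 2.37 to 13.4 ± 1.18 FPKM, SOX9 from 42.6 ± 3.81 to 5.21 ± 0.25 and the glutamate transporter gene SLC1A3 from 28.0 ± 0.62 to 0.37 ± 0.02. VIM, which encodes the filament protein vimentin, was the 1 marker that was higher, at 1065 ± 76.0 and 2160 ± 20.0 FPKM. RLBP1 and SLC1A3 reached 1 FPKM in no P1 library, so their calls are not read against the shares of all genes. Since these are bulk samples, fewer cells of a type and less RNA per cell cannot be told apart.

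LIN28A, on chromosome 1 (26410778 to 26429722, plus strand), had FPKM of 703, 758 and 631 in the hiPSC libraries. It had 1.84, 2.60 and 1.59 in D70-ROs, with 1.67, 1.63 and 1.12 in D150-ROs. In P1 iMGCs it had 0.09, 0.12 and 0.07, and in P5 iMGCs 0 in every library. The hiPSCs stood far above all other groups, the RO stages overlapped, and the iMGCs lay below both. LIN28A fell by 8.62 on the log2 scale from hiPSCs to D70-ROs (SE 0.22, edgeR adjusted p = 3.31e-10), the largest fall among the 8 genes in that comparison. In iMGCs no library reached the 1 FPKM that testing required, so LIN28A entered tests against P1 iMGCs only through the group where it was high, and counts are given in place of a p. Its 251 counts in D150-ROs against 16 in P1 iMGCs gave a ratio of 10.4 with TMM scaling (95% counting interval 6.30 to 18.6) and of 16.3 by library totals. With 0 counts over the 3 P5 libraries, and 3 counts over the group as the upper limit, it was lower in P5 iMGCs than in D150-ROs at least 53.5-fold with TMM scaling and at least 86.7-fold by library totals. Against hiPSCs these limits were at least 32130-fold and at least 40810-fold. Such intervals and limits cover counting error only, and the TMM values were added after the others had been seen.

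LIN28B (chromosome 6, 104936616 to 105083332, plus strand), the paralog of LIN28A, had FPKM of 23.1, 17.9 and 25.0 in hiPSCs, then 1.28, 0.91 and 1.83 in D70-ROs, with 0.89, 1.19 and 1.57 in D150-ROs. Its iMGC values were 0.01, 0 and 0.01 at P1 and 0 in all P5 libraries. As for its paralog, hiPSCs were apart and the RO stages overlapped. It fell by 4.03 on the log2 scale from hiPSCs to D70-ROs (SE 0.23, edgeR adjusted p = 4.54e-08). The FPKM of LIN28A was 32.7 ± 8.79 times that of LIN28B in hiPSCs and 1.72 ± 1.02 times in D70-ROs, without overlap between these groups. Only 2 LIN28B counts were found over the P1 libraries, a ratio between D150-ROs and P1 iMGCs of 85.2 with TMM scaling (95% counting interval 23.3 to 707) and of 133 by library totals.

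TRIM71 (chromosome 3, 32818018 to 32897826, plus strand), the ubiquitin ligase and mRNA repressor known as LIN41, had FPKM of 49.4, 49.1 and 38.8 in hiPSCs, then 3.38, 2.87 and 3.72 in D70-ROs, with 2.23, 2.21 and 2.28 in D150-ROs. It was at 0, 0.01 and 0 in P1 iMGCs and at 0 in all P5 libraries. No 2 of the first 4 groups overlapped. TRIM71 fell by 3.92 on the log2 scale from hiPSCs to D70-ROs (SE 0.15, edgeR adjusted p = 2.58e-09). Its 939 counts in D150-ROs against 1 in P1 iMGCs gave a ratio of 625 with TMM scaling (95% counting interval 112 to 24710) and of 976 by library totals. P5 iMGCs were at least 200.2-fold lower than D150-ROs with TMM scaling and at least 325-fold lower by library totals.

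HMGA1 (chromosome 6, 34236873 to 34246231, plus strand), an AT-hook protein that shapes chromatin and is abundant in embryonic cells, had the highest FPKM of the 8 genes in every library. Its values were 2231, 2506 and 2184 in hiPSCs, then 228, 330 and 254 in D70-ROs, with 126, 147 and 135 in D150-ROs. They were 87.3, 76.0 and 78.5 in P1 iMGCs and 58.2, 66.4 and 61.5 in P5 iMGCs, so that no neighbouring groups overlapped in FPKM. HMGA1 fell by 3.22 on the log2 scale from hiPSCs to D70-ROs (SE 0.17, edgeR adjusted p = 2.84e-08). Between the RO stages, day 150 against day 70, its change was −1.21 (SE 0.15, edgeR adjusted p = 9.71e-05), which was no longer called when the test was against a 2-fold change (adjusted p = 0.118), with the length trend removed (−0.91) or with limma on FPKM (−0.97). The step to P1 iMGCs depended on the scale, with −0.12 under TMM scaling (SE 0.06, edgeR adjusted p = 0.069) and −0.75 with limma on log2(FPKM + 1).

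HMGA2 (chromosome 12, 65824131 to 65966295, plus strand), the relative of HMGA1 that declines with age in neural stem cells, took another course. It had FPKM of 56.8, 50.6 and 57.9 in hiPSCs, then 6.61, 7.15 and 6.83 in D70-ROs, with 14.6, 16.6 and 16.3 in D150-ROs. It reached 62.1, 58.5 and 66.1 in P1 iMGCs and 53.9, 52.3 and 55.6 in P5 iMGCs. The D70-ROs were lowest, the D150-ROs lay above them without overlap, and the P1 iMGCs were above every hiPSC library, while P5 iMGCs and hiPSCs overlapped. HMGA2 fell by 3.15 on the log2 scale from hiPSCs to D70-ROs (SE 0.12, edgeR adjusted p = 2.41e-09) and rose by 2.61 from D150-ROs to P1 iMGCs (SE 0.06, edgeR adjusted p = 2.01e-15). The rise was 1.91 with limma on log2(FPKM + 1) and was called there too. Between D70-ROs and D150-ROs its log2 fold change was 0.96 (SE 0.10, edgeR adjusted p = 2.55e-05), just under the 2-fold limit. It passed that limit without D70-RO replicate 2 (1.00), without D150-RO replicate 1 (1.01) and with limma on log2(FPKM + 1) (1.09).

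**Figure D2:**
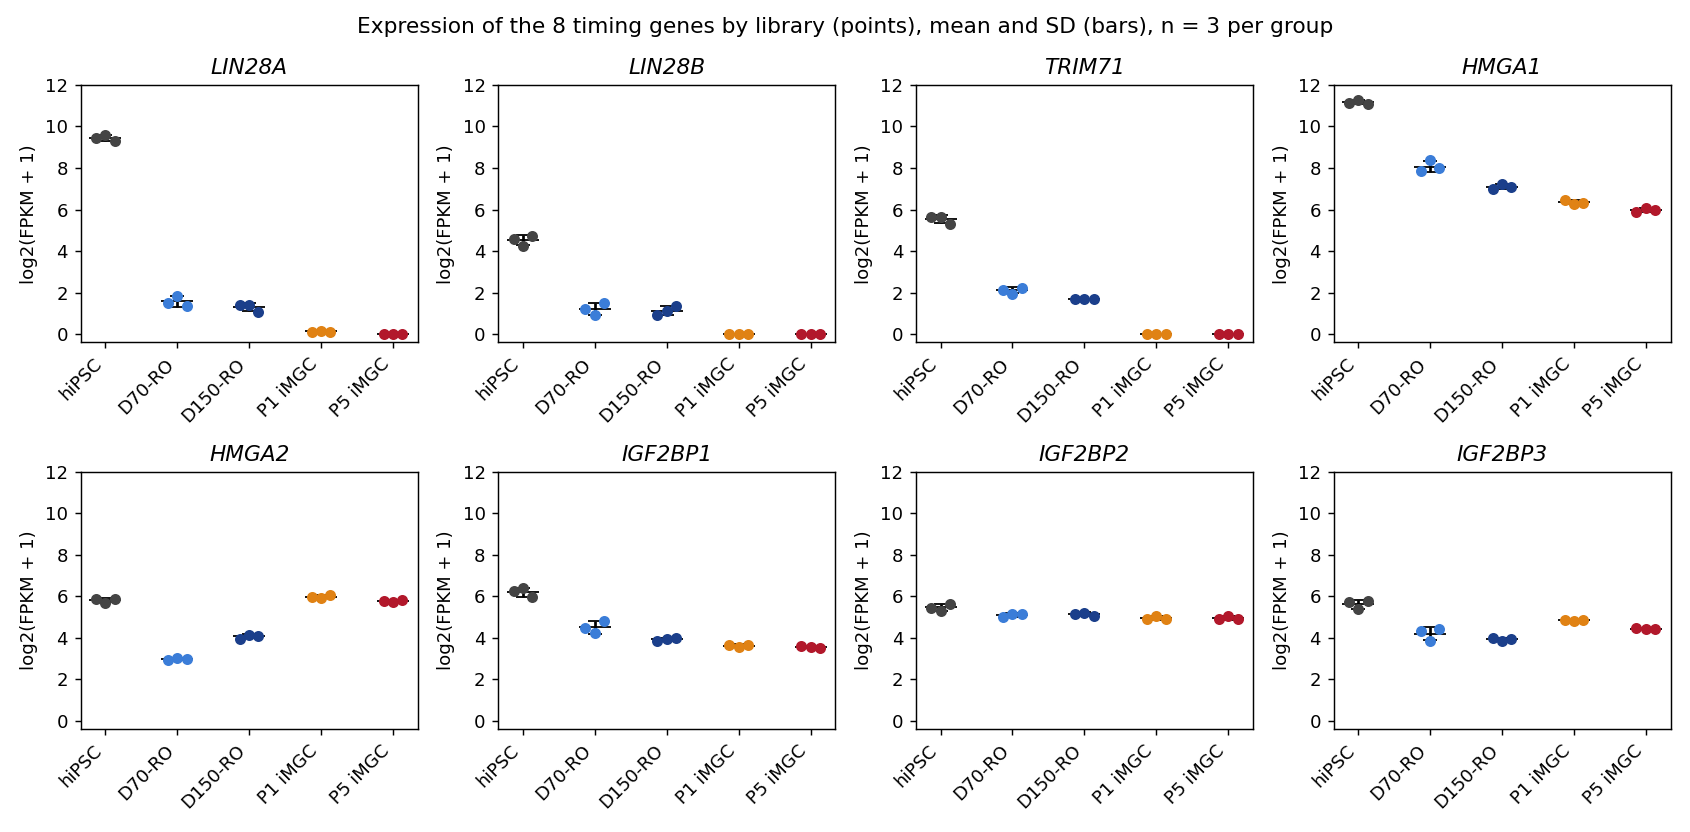
Expression of the 8 genes as log2(FPKM + 1) (y axis) in the 5 groups (x axis), with points for libraries and bars for the mean and SD of 3 libraries. LIN28A, LIN28B and TRIM71 reach 0 or nearly 0 in the iMGCs, whereas HMGA2 returns in P1 iMGCs to 62.2 FPKM on average, against 55.1 in hiPSCs.

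IGF2BP1, IGF2BP2 and IGF2BP3 encode paralogous proteins that bind mRNAs such as IGF2, ACTB and CD44 and affect their stability, transport and translation. IGF2BP1 (chromosome 17, 48997412 to 49055650, plus strand) had FPKM of 74.4, 83.4 and 60.7 in hiPSCs, then 21.6, 17.5 and 27.2 in D70-ROs, with 13.5, 14.5 and 14.9 in D150-ROs. It had 11.8, 10.7 and 11.5 in P1 iMGCs and 11.1, 10.7 and 10.6 in P5 iMGCs. The FPKM stepped down without overlap as far as P1, and the iMGC passages overlapped. The direction of the last step, from D150-ROs to P1 iMGCs, turned with the scale, with a log2 fold change of 0.30 under TMM scaling (SE 0.05, edgeR adjusted p = 6.37e-05) and −0.32 with limma on log2(FPKM + 1). IGF2BP1 fell by 1.86 on the log2 scale from hiPSCs to D70-ROs (SE 0.17, edgeR adjusted p = 1.78e-06) and by 2.71 from hiPSCs to D150-ROs (SE 0.12, edgeR adjusted p = 6.09e-10).

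IGF2BP2 (chromosome 3, 185643739 to 185825056, minus strand) varied least. Its FPKM was 42.9, 38.8 and 48.6 in hiPSCs, then 31.3, 34.2 and 34.5 in D70-ROs, with 35.0, 36.2 and 32.5 in D150-ROs. It was 29.0, 31.9 and 28.9 in P1 iMGCs and 28.7, 32.6 and 29.2 in P5 iMGCs. The hiPSCs were above the other groups, and below them each group overlapped with its neighbour in the order of the means. It was the 1 gene of the 8 that was called in none of the 6 comparisons, with log2 fold changes between −0.73 (D150-ROs against hiPSCs, SE 0.09, edgeR adjusted p = 1.15e-05) and 0.51 (P1 iMGCs against D150-ROs, SE 0.05, edgeR adjusted p = 1.45e-07).

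IGF2BP3 (chromosome 7, 23310209 to 23470467, minus strand) had FPKM of 51.1, 40.7 and 54.2 in hiPSCs, then 19.4, 13.2 and 20.6 in D70-ROs, with 15.2, 13.5 and 14.3 in D150-ROs. It had 28.4, 27.1 and 27.6 in P1 iMGCs and 21.4, 20.5 and 20.4 in P5 iMGCs. The RO stages overlapped, and the P1 iMGCs lay above them and below the hiPSCs. It fell by 1.62 on the log2 scale from hiPSCs to D70-ROs (SE 0.16, edgeR adjusted p = 3.70e-06) and rose by 1.57 from D150-ROs to P1 iMGCs (SE 0.06, edgeR adjusted p = 2.93e-13). With limma on log2(FPKM + 1) this rise was 0.91 and no longer reached 2-fold. Its counts were not whole in any of the 15 libraries, so some reads were shared with a similar sequence and its level is uncertain, whereas the other 7 genes had whole counts throughout.

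Counted together, 7 of the 8 genes were called lower in D70-ROs than in hiPSCs and 0 higher, where 21.1% of all 12954 genes tested were called lower, 22.5% higher and 43.5% either way. The same counts, 7 lower and 0 higher, were found in D150-ROs against hiPSCs, where 29.0% of 13344 genes were lower, 29.8% higher and 58.8% either way. These comparisons share the hiPSC libraries, and LIN28B reached 1 FPKM in 2 of the 3 libraries of either RO stage. The median log2 fold change of the 8 genes was −3.19 and −3.57, against 0.02 and −0.02 over all genes tested. The summed FPKM of 6 proliferation markers was also lower in ROs than in hiPSCs, and its part in these falls was not tested. It lay at 436 to 518 in hiPSCs, at 104 to 140 in D70-ROs and, lowest, at 31.2 to 44.9 in D150-ROs. Between the RO stages the median log2 fold change was −2.07 for these markers and −0.67 for the 8 genes.

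Between the RO stages HMGA1 was the 1 gene of the 8 that was called, and it was lower, where 16.7% of 12855 genes were lower, 16.6% higher and 33.3% either way. The share of calls that were higher was 49.8% with TMM scaling and 63.3% with limma on log2(FPKM + 1). IGF2BP1 and TRIM71 had log2 fold changes of −0.85 (SE 0.14) and −0.79 (SE 0.11), under the 2-fold limit. With the length trend removed both were at −1.67 and called lower, as was LIN28B at −1.10, while HMGA1 was not called. LIN28A and LIN28B, at −0.63 (SE 0.26) and −0.70 (SE 0.27) in the test without that correction, overlapped in FPKM between the stages.

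From D150-ROs to P1 iMGCs the genes parted. Of 5 genes that reached 1 FPKM in both groups, HMGA2 and IGF2BP3 were called higher and 0 lower, where 20.0% of 12896 genes were called higher, 24.1% lower and 44.1% either way. LIN28A and TRIM71 passed the filter on low values through the D150-ROs alone, so that their calls as lower are not read against that share, and LIN28B was below the filter. With limma on log2(FPKM + 1) the share of calls that were higher moved from 45.4% to 22.9% and the median of all genes lay 0.59 lower than with TMM scaling, so directions of small changes depend on the scale. IGF2BP2 had a log2 fold change of 0.51 with TMM scaling and −0.20 on FPKM, and IGF2BP1 turned likewise. The summed FPKM of 6 mesenchymal and matrix markers was 33.0 to 36.1 in D150-ROs and 10422 to 10900 in P1 iMGCs, and all 6 were called higher. That of 4 photoreceptor markers went from 674 to 680 down to 0.12 to 0.35, with CRX, RCVRN and ARR3 at 0 in all P1 libraries. Of the 6 matrix markers, COL3A1 was at 0.14 ± 0.04 FPKM in D150-ROs and passed the filter through the P1 iMGCs alone. Its call is thus not read against the share of all genes. The part of this change in cell makeup in the shifts of the timing genes was not tested.

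From P1 to P5 iMGCs edgeR called 0 of the 5 timing genes tested, where 1.94% of 11366 genes were higher, 0.977% lower and 2.92% either way. DESeq2 and limma also called 0, and 3 of the 5 had an unadjusted p under 0.05 in edgeR. Differences smaller than 2-fold exceeded the spread between libraries for IGF2BP3, with a log2 fold change of −0.36 (SE 0.04, edgeR adjusted p = 4.24e-07), and HMGA1, with −0.32 (SE 0.05, edgeR adjusted p = 5.16e-05), and the libraries of both genes did not overlap. HMGA2 was at −0.14 (SE 0.04, edgeR adjusted p = 0.0188). IGF2BP1 and IGF2BP2 overlapped between passages.

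In P1 iMGCs against hiPSCs, of 5 genes that reached 1 FPKM in both groups HMGA1 and IGF2BP1 were called lower and 0 higher, where 29.7% of 12666 genes were lower, 26.1% higher and 55.8% either way. The share of calls that were higher was 46.8% with TMM scaling and 35.6% with limma on log2(FPKM + 1). HMGA1 fell by 4.56 on the log2 scale (SE 0.10) and IGF2BP1 fell by 2.41 (SE 0.11). LIN28A, LIN28B and TRIM71 passed the filter through the hiPSCs alone, so their calls as lower are not counted here. With TMM scaling LIN28A, with 16 counts in P1 iMGCs, was 6327 times lower (95% counting interval 3895 to 11070). LIN28B, with 2 counts, was 2292 times lower (634 to 18930), and TRIM71, with 1 count, 16410 times (2945 to 648100). HMGA2, at 0.42 (SE 0.08, edgeR adjusted p = 0.000383), IGF2BP2, at −0.23, and IGF2BP3, at −0.56, were within 2-fold of hiPSCs, and HMGA2 was at −0.03 with the length trend removed.

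**Figure D3:**
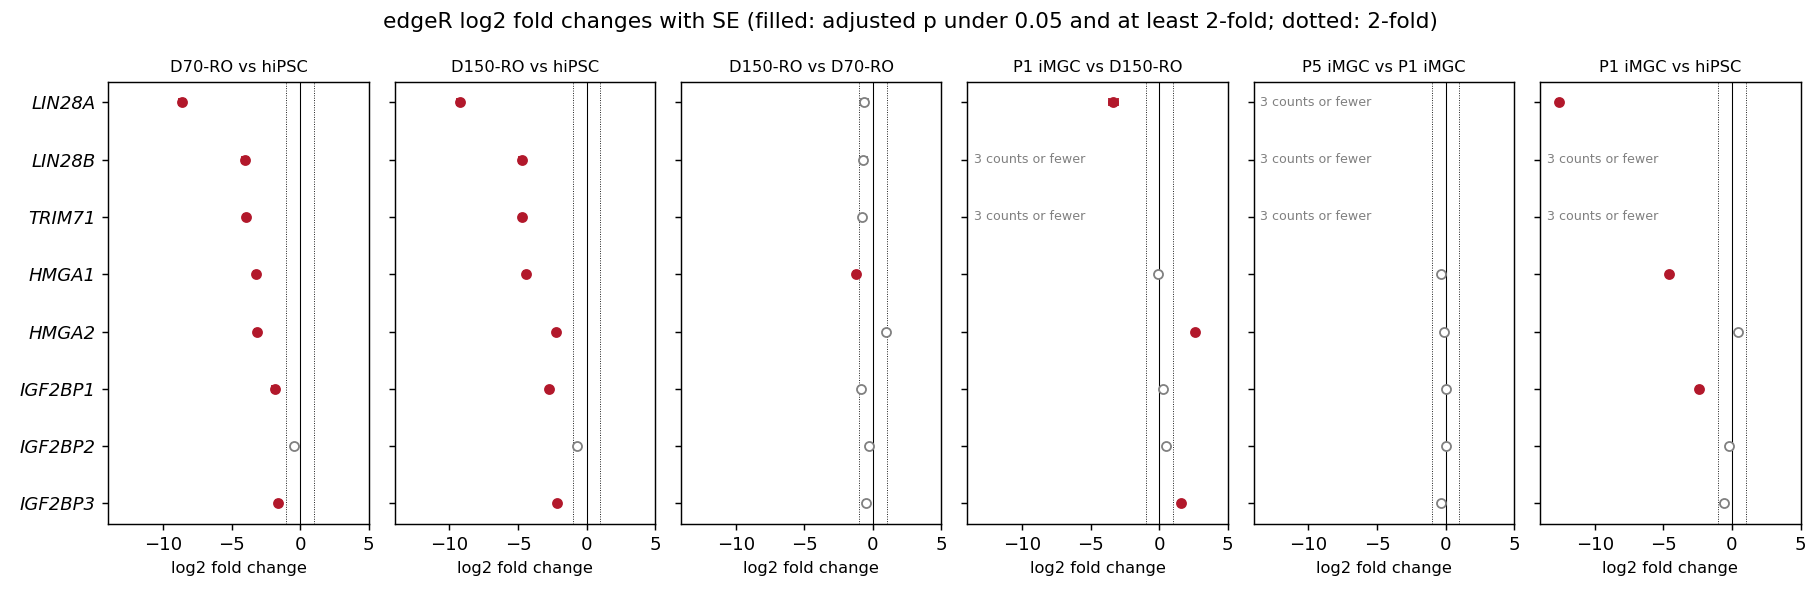
Log2 fold changes with SE (x axis) of the 8 genes (y axis) in the 6 comparisons, filled red where called and open where not, with dotted lines at 2-fold. Genes with 3 counts or fewer in the first-named group are marked and have no point. Among the genes drawn as points, the falls from hiPSCs are largest for LIN28A. Its points for P1 iMGCs rest on 16 counts there, with no P1 library at 1 FPKM. HMGA2 and IGF2BP3 are the 2 genes to the right of the 2-fold line in P1 iMGCs against D150-ROs.

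Ratios between paralogs in the same library do not depend on the scaling of libraries. They were not corrected for the length trend, and the paralogs differ in length. The implied lengths were 1910 to 1925 nt for HMGA1 and 4262 to 4476 nt for HMGA2. The log2 ratio of HMGA2 to HMGA1 was −5.39 ± 0.21 (SD, n = 3) in hiPSCs and −5.28 ± 0.22 in D70-ROs, which overlapped. It was −3.10 ± 0.05 in D150-ROs, −0.37 ± 0.12 in P1 iMGCs and −0.20 ± 0.13 in P5 iMGCs. HMGA1 was thus 42.2 times as abundant per length as HMGA2 in hiPSCs and 1.30 times in P1 iMGCs. The step from D70-ROs to D150-ROs was 2.18 (SE 0.13) and that from D150-ROs to P1 iMGCs was 2.73 (SE 0.08), both without overlap, with p = 0.1 by an exact two-sided permutation test, the smallest that 3 against 3 libraries allow, and 0.13 after adjustment over 24 such tests.

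Within the IGF2BP family the gene with the highest FPKM changed. The length trend was not removed here either, with implied lengths of 8226 to 8277 nt for IGF2BP1 and 3031 to 3357 nt for IGF2BP2. IGF2BP1 made up 44.2% ± 7.02 of the summed FPKM in hiPSCs, IGF2BP2 26.3% ± 3.03 and IGF2BP3 29.5% ± 4.15. In D150-ROs IGF2BP2 led with 54.7% ± 1.88, and both others were at 22.7%. In P1 iMGCs IGF2BP2 had 43.4% ± 2.12 and IGF2BP3 40.2% ± 1.18, with IGF2BP1 at 16.4% ± 0.94. The IGF2BP3 share was 17.6 percentage points higher in P1 iMGCs than in D150-ROs (SE 1.09) and 6.54 points lower in P5 than in P1 iMGCs (SE 1.08), without overlap in either case and with p = 0.1 by the same exact permutation test.

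**Figure D4:**
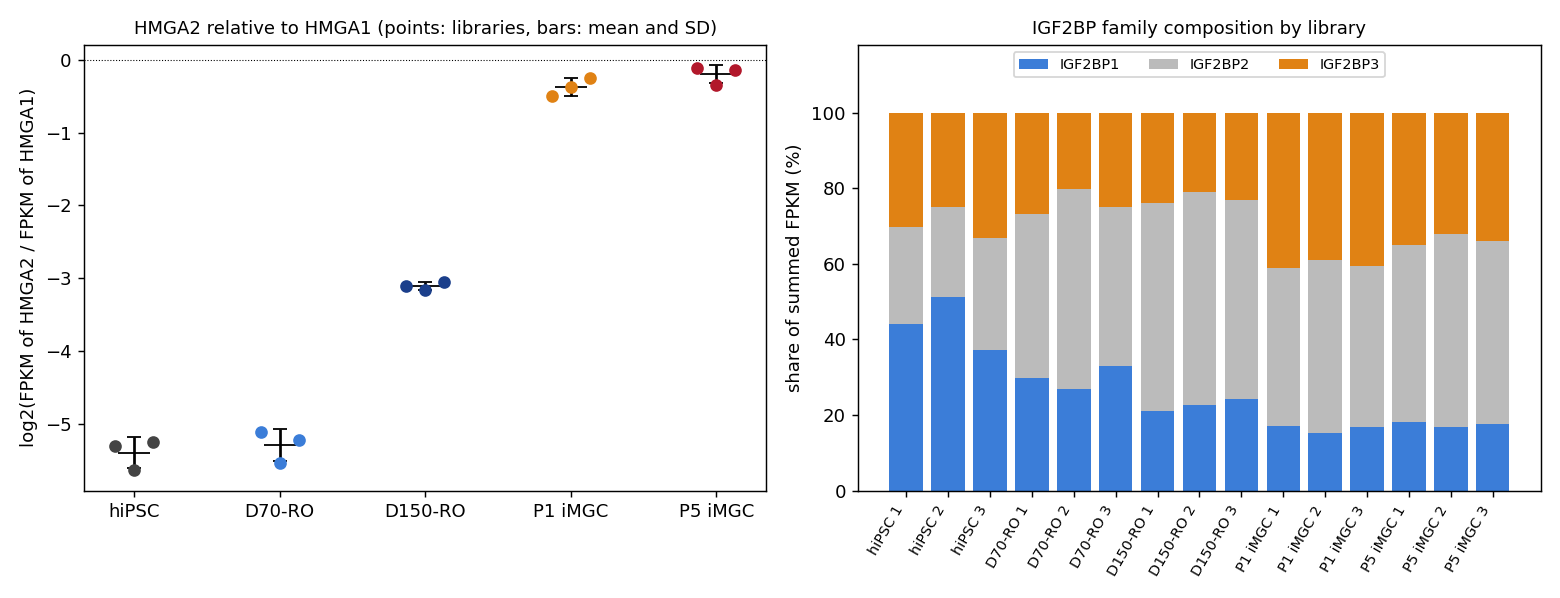
Left, log2 ratio of the FPKM of HMGA2 to that of HMGA1 by group, with points for libraries and bars for mean and SD (n = 3). Right, share in % of IGF2BP1, IGF2BP2 and IGF2BP3 in their summed FPKM, 1 bar per library. The HMGA ratio moves from −5.39 in hiPSCs to −0.37 in P1 iMGCs, and the IGF2BP1 share shrinks from 44.2% to 16.4%.

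The other genes of the pathway came from lists written out by name, and their counts include genes that reached 1 FPKM in one of the groups alone. The share of all genes tested is given beside the counts, but calls of genes that passed the filter through 1 group alone are not read against it. Of 12 genes for let-7 processing, which cut, load or tail small RNAs, 4 were called higher and 0 lower in D150-ROs against D70-ROs (16.6% and 16.7% of all genes), with a median log2 fold change of 0.87 against −0.01 over all genes. DICER1, which cuts the let-7 precursor, rose by 2.18 (SE 0.17, edgeR adjusted p = 6.48e-06), from 6.22 ± 1.52 to 37.4 ± 0.94 FPKM. TUT4, which adds the uridine tail to the precursor when LIN28 is bound, rose by 1.09 (SE 0.14), and AGO3 and DROSHA by 1.37 and 1.02. The genes of the lists were tested without removal of the length trend. That removal moved some of the 8 timing genes across the 2-fold limit between the RO stages, so rises near 2-fold are uncertain. In P1 iMGCs against D150-ROs 0 were higher and 3 lower (20.0% and 24.1% of all genes), AGO4 (−1.32), TUT4 (−1.11) and AGO3 (−1.01). In D70-ROs against hiPSCs 2 were higher and 3 lower (22.5% and 21.1%), and in D150-ROs against hiPSCs 5 and 2 (29.8% and 29.0%). Calls in P1 iMGCs against hiPSCs were 3 and 2 (26.1% and 29.7%), and in P5 against P1 iMGCs 0 and 0 (1.94% and 0.977%). The direction of AGO3 depended on the measure in D70-ROs against hiPSCs. Its log2 fold change on counts was 0.75 (SE 0.16, not called), while its FPKM was 5.79 ± 0.58 in hiPSCs and 3.91 ± 0.93 in D70-ROs.

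Of 21 known let-7 targets outside the 8 genes, 11 of the 20 with an annotated UTR held a seed match. In D70-ROs against hiPSCs 3 were higher and 6 lower of 21 tested, where 22.5% and 21.1% of all genes were, and in D150-ROs against hiPSCs 2 and 9 of 20, where 29.8% and 29.0% were. NR6A1, an orphan receptor of early embryos that holds 5 matches, was at 88.0 ± 12.7 FPKM in hiPSCs and 0.97 ± 0.13 in D70-ROs, a fall of 6.58 (SE 0.16, edgeR adjusted p = 2.59e-10). MYC, a growth regulator, fell by 3.86 in the same comparison, whereas NR2E1, a nuclear receptor of retinal progenitors, rose by 7.94. In D150-ROs against D70-ROs 1 of 20 was higher, THBS1 (3.14), and 6 lower (16.6% and 16.7% of all genes). In P1 iMGCs against D150-ROs 7 of 20 were higher, THBS1 (5.55) and FAS (3.63) the most, and 4 lower, MYCN (−8.92) and NR2E1 (−6.80) the most, where 20.0% and 24.1% of all genes were. Of 20 tested, 5 were higher and 9 lower in P1 iMGCs against hiPSCs (26.1% and 29.7% of all genes). In P5 against P1 iMGCs THBS1 alone of 18 was higher (1.58) and 0 lower (1.94% and 0.977%). MYCN, NR2E1 and NR6A1 reached 1 FPKM in no P1 library, NR2E1 and FAS in no hiPSC library, and THBS1 in no D70-RO library. Calls of these genes in comparisons with those groups are not read against the shares.

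Of 6 transcripts bound by IGF2BP proteins or repressed by TRIM71, 3 were higher and 1 lower in P1 iMGCs against D150-ROs, where 20.0% and 24.1% of all genes were. CDKN1A, a cell cycle inhibitor repressed by TRIM71, rose by 3.55 (SE 0.05, edgeR adjusted p = 7.73e-18), ACTB by 2.27 and EGR1 by 2.04, and IGF2 fell by 8.77 (SE 0.21). IGF2 was at 16.7 ± 1.81 FPKM in D150-ROs, 0.04 ± 0.03 in P1 iMGCs and 0.28 ± 0.07 in hiPSCs. It reached 1 FPKM in no P1 or hiPSC library, so its calls in comparisons with those groups are not read against the shares. CDKN1A was also called higher in D70-ROs against hiPSCs (3.32), and lower between the RO stages (−2.12). The list had 2 higher and 2 lower in D70-ROs against hiPSCs (22.5% and 21.1% of all genes), 4 and 1 in D150-ROs against hiPSCs (29.8% and 29.0%) and 1 and 1 in D150-ROs against D70-ROs (16.6% and 16.7%). It had 3 and 0 of 5 tested in P1 iMGCs against hiPSCs (26.1% and 29.7%), and 0 and 0 of 5 between the passages (1.94% and 0.977%).

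All 4 late temporal factors of the retina were called higher at the later RO stage, D150-ROs against D70-ROs, with a median log2 fold change of 4.38. NFIX, NFIB and NFIA reached 1 FPKM in no D70-RO library and passed the filter through the D150-ROs alone. Their calls are thus not read against the 16.6% of all genes called higher, and no p is given for them. NFIX rose by 6.46 (SE 0.32), from 0.36 ± 0.20 to 27.7 ± 2.60 FPKM, NFIB by 5.19 and NFIA by 3.58. CASZ1, which reached 1 FPKM at both stages, rose by 1.15. In P1 iMGCs against D150-ROs 0 were higher and 2 lower (20.0% and 24.1% of all genes), CASZ1 (−6.49), which passed the filter through the D150-ROs alone, and NFIB (−1.48). Of 6 early factors, 5 were tested between the RO stages. FOXN4, which acts in early progenitors, fell by 2.54 (SE 0.13), POU2F2 fell by 1.35 and POU2F1 rose by 1.53. The shares of all genes are those given above for each comparison. The late factors had 1 higher and 0 lower of 1 tested in D70-ROs against hiPSCs, 4 and 0 in D150-ROs against hiPSCs, 3 and 1 in P1 iMGCs against hiPSCs, and 0 and 0 between the passages. The early factors had 3 and 0 of 5 tested, 1 and 0 of 5, 2 and 0 of 4, and 0 and 0 of 4 in those comparisons, and 2 and 3 of 5 in P1 iMGCs against D150-ROs. No hiPSC library reached 1 FPKM of NFIX, NFIB, NFIA or FOXN4. No P1 library reached it for CASZ1 or FOXN4. Calls of these genes in comparisons with those groups are not read against the shares.

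The genes most like each of the 8 over the 15 libraries were found among 13915 genes by Pearson's r of log2(FPKM + 1). The libraries fall into 5 groups, so r mainly compares group means. For LIN28A they were EPCAM (r = 0.998), CNMD and NR6A1, for TRIM71 CDH3 (r = 0.998), RECQL4 and CORO2A, and for LIN28B HNRNPL (r = 0.993), FANCD2 and SEPHS1. HMGA1 was nearest to DAZAP1 (r = 0.997), ARHGEF39 and SNRPN, and IGF2BP1 to SNTG2 (r = 0.996), ESPL1 and KIF18B. HMGA2 was nearest to SLC35F2 (r = 0.991), CALR and RRBP1, which were also lowest in D70-ROs. IGF2BP3 was nearest to HMGCS1 (r = 0.983) and PRPS2, and IGF2BP2, the gene that varied least, had the lowest likeness, with NET1 (r = 0.930), DHTKD1 and CHST9.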

How the data were processed

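Poly(A) RNA-seq of 15 libraries, 3 per group, was analysed from tables of 19684 genes. The tools named by the authors were HISAT2 for mapping, StringTie for assembly and RSEM for quantification. Per the file headers, the deposited values are expected counts per gene, not normalized, and FPKM, which the authors scaled for length and library total. Versions, genome build and annotation of these steps are not given in the sources used here, and all gene identifiers are in GENCODE 29, which gave positions and UTRs. Between 8.21% and 10.05% of expected counts per library were not whole and were rounded.

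Groups were compared 2 at a time in R 4.3.3 with edgeR 4.0.16 (quasi-likelihood, TMM, no covariates). A gene was tested if 3 or more of the compared libraries had 1 FPKM or more of it. SE is the log2 fold change divided by the square root of F. The test was tested on simulated data. The alternatives used upper-quartile or DESeq2 1.42.0 scaling, DESeq2, no filter, 1 fit of all libraries, a replicate block, a test against 2-fold, removal of the length trend, limma 3.58.1 on log2(FPKM + 1) or log2(FPKM + 0.1), and each library left out. Ratios at few counts were scaled by TMM or by library totals. Ratios between paralogs were compared by exact permutation tests.

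The 8 genes and the lists were chosen with earlier results of these data known. Named were all 8 genes, up to 4 called genes per list with the largest change, and the 3 genes most like each, 1 of which is not reported here. The transcript rule for let-7 matches was changed after the first rule's counts were seen. In a table that sets D150-ROs beside iMGCs, 6 iMGC columns name no passage and were not used.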

Additional observations from a re-analysis of the deposited data

How the results depend on the processing

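Depth limits the iMGC values of LIN28A, LIN28B and TRIM71, which rest on 16, 2 and 1 counts at P1 and 0 at P5. Ratios and limits by library totals were 1.21 to 1.62 times those with TMM scaling, an alternative chosen after seeing the data. In D150-ROs against D70-ROs a test against a 2-fold change called 2830 genes and 0 of the 8, in place of 4276 and 1. Removing the length trend called 3 of the 8, LIN28B (−1.10), IGF2BP1 (−1.67) and TRIM71 (−1.67), and not HMGA1. With 1 library left out, 1 to 2 were called, HMGA2 being added without D70-RO replicate 2 or D150-RO replicate 1. IGF2BP2 turned to 0.05 with limma at both pseudocounts. In P1 iMGCs against D150-ROs limma with a pseudocount of 1 turned IGF2BP1 to −0.32 and IGF2BP2 to −0.20, and with 0.1 to −0.34 and −0.21. In P5 against P1 iMGCs 694 genes and 1 of the 8 (LIN28A) were called without the filter, 161 against 2-fold and 152 with limma at 1, in place of 332 and 0. IGF2BP1, at 0.00 there, changed sign with the length trend removed (0.00) and ranged from −0.04 to 0.02 with 1 library left out. HMGA2 in P1 iMGCs against hiPSCs was −0.03 with the length trend removed. Deviations of equally numbered libraries correlated between −0.059 and 0.347, and those of unequally numbered libraries between −0.303 and 0.297. With 3 libraries per group, these values cannot settle whether equal numbers mark pairs. A fit with the replicate block called 7, 7, 1, 4, 0 and 5 of the 8 genes in the 6 comparisons, as without it. Without the block, the 4 and the 5 include LIN28A and TRIM71, and the 5 also LIN28B, which reached 1 FPKM in no P1 library. Of all genes, 43.5%, 58.8%, 33.3%, 44.1%, 2.92% and 55.8% were called without the block. The causes of these shifts were not tested.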
